A study of Homo sapiens with 4 samples.

Results

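The long noncoding RNAs (lncRNAs) described here carry the names of ribosomal protein genes. A name such as lnc-RPS2-2 gives a protein-coding gene near the lncRNA and a running number, and says nothing of the lncRNA's own function. Members were chosen by their names and by their measured level, as all genes named lnc-RPL, lnc-RPS, lnc-MRPL or lnc-MRPS followed by a gene number whose mean over the 4 libraries was at least 0.1 FPKM. FPKM is the number of sequenced fragments scaled by transcript length and by library size, here summed over the isoforms of a gene. Of 328 genes with such names among the 46902 lncRNA genes listed, 103 were members. Of the other 225 genes, 123 were listed at 0 in all 4 libraries and 102 had a mean above 0 but below 0.1 FPKM.

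The 4 libraries came from 2 human cell lines, with 2 libraries each. MDA-MB-231-P3 is a highly metastatic subline selected in the lung: MDA-MB-231 cells were injected into the tail vein of mice, cells were taken from the lung tumours that formed and grown on in vitro, and this was done 3 times. MDA-MB-231 is its parent, a triple-negative breast cancer cell line. Both were sequenced as strand-marked 150-base paired-end libraries. Separate cultures are not stated in the labels for the 2 libraries of a line, so p-values here cover the spread between libraries alone, and that spread may be technical. The subline is 1 selected population, and selection in the lung cannot be told apart from its longer history in culture. The summed FPKM of all listed lncRNAs was 351135 and 372689 in MDA-MB-231-P3 and 460282 and 500086 in MDA-MB-231, and read depth was unknown. Of 10 protein-coding marker symbols of breast cancer cells and other lung tumour cells, 0 had a row in this lncRNA table, so the identity of the lines was not checked here.

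Ribosomes translate mRNA into protein. The cytosolic ribosome is built from large-subunit proteins (RPL genes) and small-subunit proteins (RPS genes), and the mitochondrial ribosome, which translates the few mRNAs of the mitochondrial genome, from MRPL and MRPS proteins encoded in the nucleus. Cytosolic ribosomal protein mRNAs usually begin with a C and a run of pyrimidines, the 5′ terminal oligopyrimidine tract, through which growth signals of the mTOR pathway control their translation. Many ribosomal protein genes host small nucleolar RNAs in their introns and have near-identical pseudogenes elsewhere in the genome, so a lncRNA that overlaps such a gene or copy may share reads with it. Such sharing was not tested for any value below.

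The neighbouring genes split along these classes at their own starts. In RefSeq (GRCh38.p14), a start was on record for 33 of the 40 cytosolic and 26 of the 29 mitochondrial neighbours. A C followed by at least 4 bases that were each C or T stood exactly at a recorded start of 26 of those 33 cytosolic genes (78.8%) and of 2 of those 26 mitochondrial genes (7.69%). Of all 27305 genes of the RefSeq set, 5.14% had such a start. Only the gene's own strand was read. The starts of the 3 cytosolic and 3 mitochondrial neighbours with the most abundant lncRNA among genes with 1 recorded start are shown to make this contrast visible, as the 15 bases before and the 15 bases from the start, 5′ to 3′. Capitals mark the pyrimidine tract. The lncRNAs' own sequences were not used here.
RPL22 (chr1:6199581-6199610, minus strand): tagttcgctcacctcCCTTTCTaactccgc
RPL13A (chr19:49487593-49487622, plus strand): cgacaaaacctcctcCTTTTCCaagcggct
RPL21 (chr13:27251543-27251572, plus strand): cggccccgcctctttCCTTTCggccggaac
MRPS30 (chr5:44808932-44808961, plus strand): ttgacctctgggtccggaatcgcgggcaaa
MRPL11 (chr11:66438834-66438863, minus strand): ctgccctagcctaacgtgaggacccttgac
MRPS16 (chr10:73252630-73252659, minus strand): cgtggcgagcggatcatccgcttccggagt

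The 103 members were named for 69 different ribosomal protein genes, which lie on 23 chromosomes. The words neighbour and beside refer to the name alone, since the lncRNAs' own positions were not used. Classes were taken from the symbol of the neighbour alone: 27 members were named for RPL (cytosolic large-subunit) genes, 27 for RPS (cytosolic small-subunit) genes, 33 for MRPL (mitochondrial large-subunit) genes and 16 for MRPS (mitochondrial small-subunit) genes. The 16 include 4 named for MRPS30, whose product, despite its symbol, sits in the large mitochondrial subunit. Most were rare. The median of the members' mean levels was 0.732 FPKM for the cytosolic large, 0.994 FPKM for the cytosolic small, 0.418 FPKM for the mitochondrial large and 0.862 FPKM for the mitochondrial small class. A mean of at least 1 FPKM was reached by 42 members and a mean of at least 10 FPKM by 2. Because the rule used these means, they are given as a description. Just inside the rule's minimum were lnc-RPL19-5 at a mean of 0.106 FPKM, lnc-MRPL47-1 at 0.104 FPKM and lnc-MRPS31-1 at 0.101 FPKM, and just outside it lnc-RPL10L-5 at 0.0981 FPKM, lnc-MRPS25-7 at 0.0955 FPKM and lnc-RPS24-13 at 0.0918 FPKM.

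**Figure D1:**
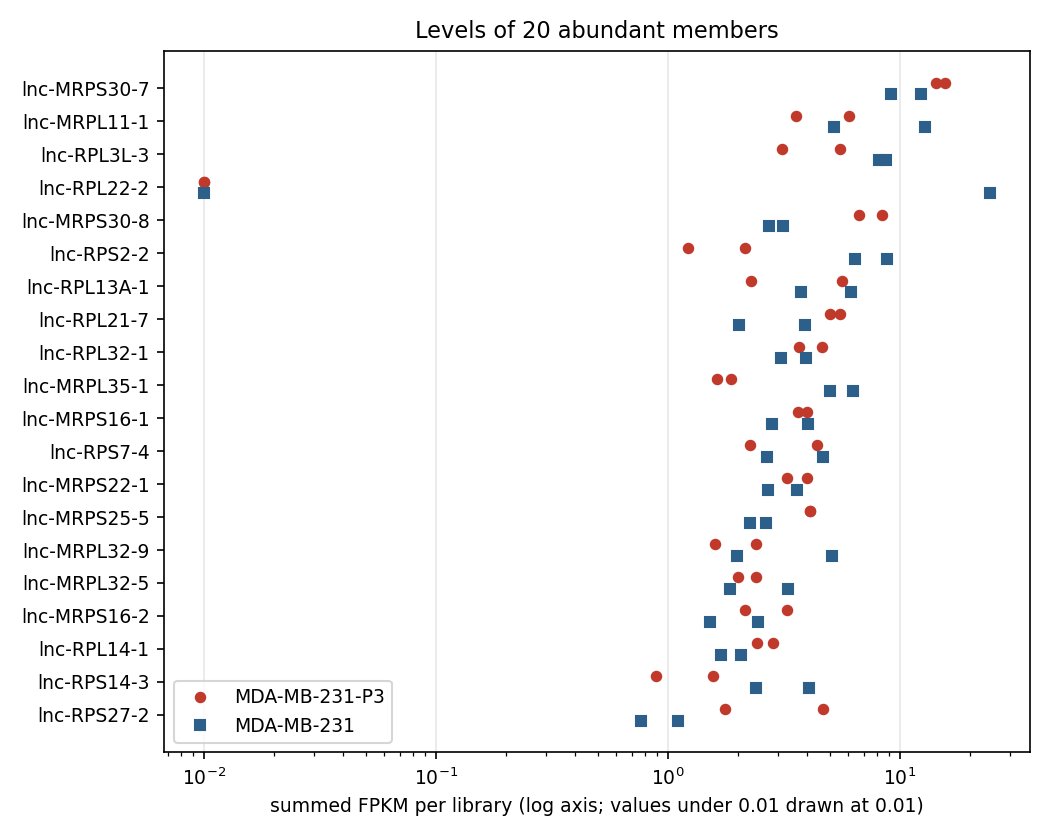
Summed FPKM (log axis) of 20 abundant members, 1 point per library, circles for MDA-MB-231-P3 and squares for MDA-MB-231; values under 0.01 FPKM are drawn at 0.01. Most lie below 10 FPKM, lnc-MRPS30-7 stands at 15.7 and 14.4 FPKM in MDA-MB-231-P3 and at 12.3 and 9.20 FPKM in MDA-MB-231, and lnc-RPL22-2 is high in 1 parental library only.

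The main question was which of these lncRNAs had other levels in MDA-MB-231-P3 than in MDA-MB-231. Genes with a mean of at least 0.5 FPKM were fitted on log2(FPKM + 0.5) over the whole table with limma, with p-values adjusted over all 6444 genes tested. The added 0.5 understates the change of low values. Of the members, 57 passed this filter and 46 did not. The filter took the mean over all 4 libraries, so a member could pass it through the values of a single line. Limma called 0 of the 57 at an adjusted p under 0.05, where 4 of all 6444 genes (0.0621%) were called, 0.031% higher and 0.031% lower in the subline. At an unadjusted p under 0.05 there were 9 members, 5 higher and 4 lower in the subline. This was 15.8% of the 57, against 15.2% of all genes tested (9.5% higher and 5.68% lower), a share near the background. The smallest adjusted p of a member was 0.219 (limma).

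The members were spread on both sides of zero. The log2 difference, subline minus parent, was positive for 32 and negative for 25 of the 57, with a median of 0.10. Over all genes tested, a positive difference was found in 54.7% and a negative one in 45.3%, and the median was 0.09. Values listed in both subline libraries were above both parental ones for 17 members and below them for 14. These are 29.8% and 24.6% of the 57, and over all genes tested the percentages were 28.9% and 21.4%, or 50.3% in either direction. Some of these orderings set values at or near 0 against each other. With values at or under 0.01 FPKM taken as equal the counts were 16 and 13, and the background was 28.5% and 21.3%.

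Taken by class, the mitochondrial small-subunit neighbours had the highest median difference, 0.56 on the log2 scale over 12 tested members, 10 of them positive. The 12 include the 4 MRPS30 neighbours, and without them the median was 0.50 over 8, with 7 positive. Counting those 4 with the mitochondrial large class, a grouping added after the data were seen, gave that class a median of 0.13 over 18, with 10 positive. Both subline libraries lay above both parental ones for 7 of the 12 and below them for 2. Without the MRPS30 neighbours these counts were 4 and 1 of 8. For the cytosolic large class they were 4 and 3 of 14, and for the cytosolic small class 5 and 5 of 17. The mitochondrial large class had 1 above and 4 below of 14. Over all genes tested the shares were 28.9% above and 21.4% below. The cytosolic small-subunit neighbours had a median of -0.14 over 17, with 7 positive, and the mitochondrial large-subunit neighbours a median of -0.02 over 14, also with 7 positive. The cytosolic large-subunit neighbours had a median of 0.04 over 14, with 8 positive. Limma called 0 members in each class. An unadjusted p under 0.05 was reached by 3 of the 12 mitochondrial small members (25%, 3 higher), 5 of the 17 cytosolic small members (29.4%, 2 higher and 3 lower), 1 of the 14 mitochondrial large members (7.14%, lower) and 0 of the 14 cytosolic large members, against 15.2% of all genes tested. Without the MRPS30 neighbours, 2 of 8 mitochondrial small members reached that p, 2 higher and 0 lower. The mitochondrial large class with those neighbours had 1 higher and 1 lower of 18. These counts are small, and the differences between classes were not tested. The scaling, the filter and single libraries decide some of these values. With each library scaled to its FPKM sum without the 10 most abundant isoforms, the cytosolic small median was 0.05 and the mitochondrial large one 0.16, while the median of all genes tested moved to 0.26. Relative to that, the class medians were 0.48 for the mitochondrial small, -0.21 for the cytosolic small, -0.10 for the mitochondrial large and -0.05 for the cytosolic large class. Under quantile normalization the cytosolic large median was -0.09. At a minimum of 0.1 FPKM the medians were 0.21 for the cytosolic large class (17 of 27 positive) and 0.16 for the mitochondrial large class (20 of 33 positive). Leaving out MDA-MB-231 replicate 2 gave the cytosolic large class a median of 0.25 and the cytosolic small class one of 0.16, and the mitochondrial small median was 0.27 without replicate 1 of MDA-MB-231-P3. Leaving out MDA-MB-231 replicate 1 gave the mitochondrial large class a median of 0.01.

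**Figure D2:**
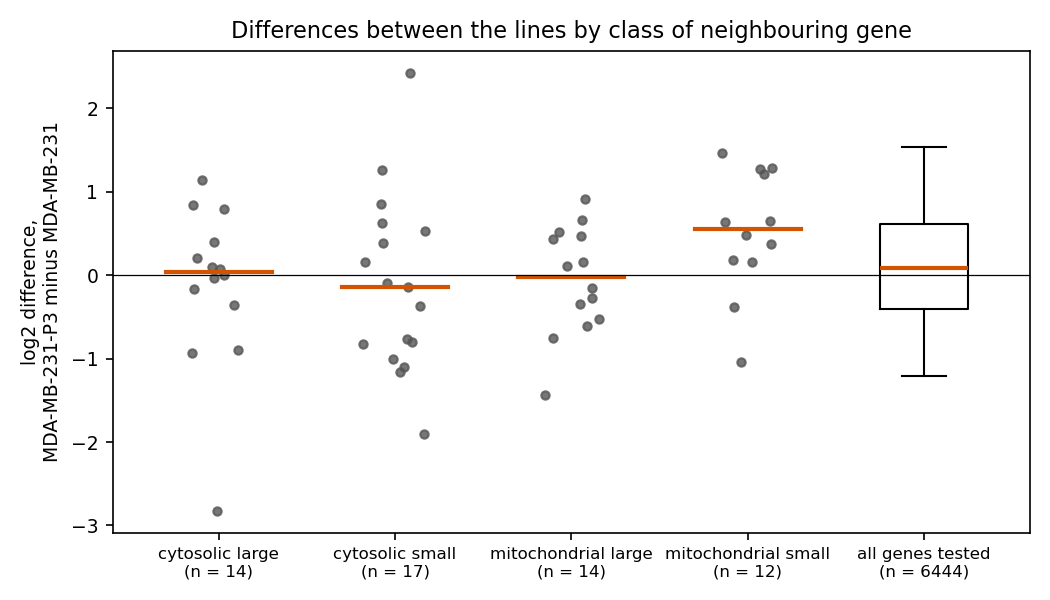
Log2 difference of each tested member, MDA-MB-231-P3 minus MDA-MB-231, by class of the neighbouring gene (1 point per member, orange line the median), beside a box of all 6444 genes tested (box from the 25th to the 75th percentile, whiskers from the 5th to the 95th). Class medians run from -0.14 to 0.56, and the box of all genes spans -0.40 to 0.62. The box shows the spread of single genes, so it does not measure how far a class median would vary.

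Among the cytosolic small-subunit neighbours, lnc-RPS27A-6 had the smallest p. Its neighbour RPS27A encodes a ribosomal protein fused to ubiquitin. The lncRNA was listed at 1.93 and 2.47 FPKM in MDA-MB-231-P3 and near 0 in both MDA-MB-231 libraries, which gives no fold change. The log2 difference was 2.43 (SE 0.33, limma adjusted p = 0.219). A second lncRNA of the same gene, lnc-RPS27A-1, had 1.74 and 2.24 FPKM in MDA-MB-231-P3 and 1.04 and 0.715 FPKM in MDA-MB-231 (limma adjusted p = 0.312). Both lay higher in both subline libraries than in either parental library, and neither passed the test.

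In the opposite direction, lnc-RPS2-2 had 1.22 and 2.16 FPKM in MDA-MB-231-P3 and 8.85 and 6.39 FPKM in MDA-MB-231. RPS2 encodes a protein of the small subunit at the mRNA entry site. The mean was 1.69 ± 0.663 FPKM in the subline and 7.62 ± 1.74 FPKM in the parent (SD, n = 2 each). The log2 difference was -1.91, with an SE of 0.36 (limma adjusted p = 0.256). For lnc-RPS14-3, named for the gene whose loss is linked to the anaemia of the 5q- syndrome, the values were 1.57 and 0.894 FPKM in MDA-MB-231-P3 and 4.08 and 2.40 FPKM in MDA-MB-231 (log2 difference -1.10, limma adjusted p = 0.313). The lines did not overlap for either lncRNA. By contrast, lnc-RPS7-4, with 2.25 and 4.40 FPKM in MDA-MB-231-P3 and 2.69 and 4.65 FPKM in MDA-MB-231, varied as much within each line as between them.

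Among the 14 cytosolic large-subunit neighbours in the main test, 0 had an unadjusted p under 0.05. RPL3L encodes a relative of RPL3 found mainly in heart and skeletal muscle, and lnc-RPL3L-3 had 5.51 and 3.10 FPKM in MDA-MB-231-P3 and 8.11 and 8.70 FPKM in MDA-MB-231 (log2 difference -0.94, limma adjusted p = 0.331). The lncRNA lnc-RPL21-7 had 5.55 and 5.02 FPKM in MDA-MB-231-P3 and 2.02 and 3.91 FPKM in MDA-MB-231 (limma adjusted p = 0.395). Its lines did not overlap, but the parental libraries differed from each other by more than the nearest libraries of the 2 lines. At a lower level, lnc-RPL37-1 had 1.03 and 2.47 FPKM in MDA-MB-231-P3 and 0.381 and 0.567 FPKM in MDA-MB-231 (limma adjusted p = 0.337). For lnc-RPL14-5 the values were 0.624 and 0.225 FPKM in MDA-MB-231-P3 and 1.16 and 1.19 FPKM in MDA-MB-231 (limma adjusted p = 0.353).

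Other abundant large-subunit neighbours, lnc-RPL13A-1 and lnc-RPL32-1, overlapped between the lines. For lnc-RPL13A-1, beside a gene whose product can also leave the ribosome and repress translation of inflammatory mRNAs, the values were 5.66 and 2.28 FPKM in MDA-MB-231-P3 and 6.15 and 3.74 FPKM in MDA-MB-231. For lnc-RPL32-1 they were 3.67 and 4.64 FPKM in MDA-MB-231-P3 and 3.09 and 3.96 FPKM in MDA-MB-231. In both cases the 2 libraries of a line lay farther apart than the means of the lines.

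Of the mitochondrial large-subunit neighbours, lnc-MRPL35-1 had the largest difference. It was listed at 1.63 and 1.88 FPKM in MDA-MB-231-P3 and at 5.02 and 6.27 FPKM in MDA-MB-231, with means of 1.75 ± 0.177 FPKM in the subline and 5.64 ± 0.886 FPKM in the parent (SD, n = 2 each). The ratio of means was 0.311 and the log2 difference -1.44 (SE 0.27, limma adjusted p = 0.256). The more abundant lnc-MRPL11-1 had 6.05 and 3.56 FPKM in MDA-MB-231-P3 and 5.18 and 12.8 FPKM in MDA-MB-231, and lnc-MRPL32-9 had 1.60 and 2.39 FPKM in MDA-MB-231-P3 and 1.996 and 5.13 FPKM in MDA-MB-231. In both of these, 1 parental library was high and the other lay within the range of the subline. Without MDA-MB-231 replicate 2, the log2 difference of lnc-MRPL11-1 was -0.14 rather than -0.76, and that of lnc-MRPL32-9 was -0.02 rather than -0.61.

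The mitochondrial small-subunit class, taken by symbol, held 3 members with an unadjusted p under 0.05, all higher in the subline. Among them was lnc-MRPS30-8, although the product of MRPS30 sits in the large mitochondrial subunit. Without the MRPS30 neighbours the count was 2 of 8. MRPS30 gives its name to 2 abundant lncRNAs. For lnc-MRPS30-8 the values were 8.38 and 6.68 FPKM in MDA-MB-231-P3 and 2.73 and 3.15 FPKM in MDA-MB-231, a ratio of means of 2.56. The log2 difference was 1.22, with an SE of 0.27 (limma adjusted p = 0.268). For lnc-MRPS6-4 they were 2.92 and 2.59 FPKM in MDA-MB-231-P3 and 1.07 and 0.645 FPKM in MDA-MB-231 (ratio 3.22, log2 difference 1.28, limma adjusted p = 0.268). For lnc-MRPS14-1 they were 1.16 and 1.86 FPKM in MDA-MB-231-P3 and 0.199 and 0.244 FPKM in MDA-MB-231 (ratio 6.84, log2 difference 1.46, limma adjusted p = 0.268). In each of these the gap between the lines was wider than the gap between the libraries of a line, and none passed the test over all genes. The parental mean of lnc-MRPS14-1 was 0.221 FPKM, so it passed the 0.5 FPKM filter only through its subline values. For lnc-MRPS16-1 the values were 3.99 and 3.64 FPKM in MDA-MB-231-P3 and 4.01 and 2.82 FPKM in MDA-MB-231, which overlap. A further member, lnc-MRPS25-5, had 4.12 and 4.10 FPKM in MDA-MB-231-P3 and 2.64 and 2.26 FPKM in MDA-MB-231 (log2 difference 0.65, limma adjusted p = 0.337) and was chosen after its values were seen.

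Libraries of the same line disagreed strongly for a few members. The median absolute difference between the 2 libraries of a line, on the log2 scale, was 0.34 in MDA-MB-231-P3 and 0.42 in MDA-MB-231 over the 57 tested members, against 0.38 in MDA-MB-231-P3 and 0.45 in MDA-MB-231 over all genes tested. Across the 57 members Pearson's r between libraries was 0.825 within the subline and 0.532 within the parent. Across all genes tested it was 0.846 within the subline and 0.836 within the parent. Between libraries of different lines r was 0.472 to 0.649 for the members and 0.773 to 0.806 for all genes tested. For the members, r within the parent thus lay inside the range between the lines. Members are not independent replicates, so r is a description. Differences between the lines had a median absolute size of 0.61 for the members and 0.51 for all genes tested.

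The member with the widest gap was lnc-RPL22-2, listed near 0 in both MDA-MB-231-P3 libraries and at 24.6 FPKM and near 0 in the MDA-MB-231 libraries. RPL22 encodes a large-subunit protein that also binds viral and cellular RNAs. The difference of -2.82 on the log2 scale rests on replicate 1 of MDA-MB-231, and without it the difference was 0.00.

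A pair of lncRNAs beside RPS13 showed complementary values. In MDA-MB-231-P3, lnc-RPS13-3 had 0.419 and 0.472 FPKM and lnc-RPS13-2 had 0.611 and 0.423 FPKM. In MDA-MB-231, lnc-RPS13-3 was listed at 6.68 FPKM in replicate 1 and near 0 in replicate 2, while lnc-RPS13-2 was near 0 in replicate 1 and at 5.75 FPKM in replicate 2. The 2 lncRNAs together summed to 1.03 and 0.895 FPKM in MDA-MB-231-P3 and to 6.68 and 5.75 FPKM in MDA-MB-231, and this sum was formed after the values were seen. Singly, the log2 differences were -1.004 for lnc-RPS13-3 (limma adjusted p = 0.720) and -0.80 for lnc-RPS13-2 (limma adjusted p = 0.769). Each became positive when the parental library holding its high value was left out, at 0.92 for lnc-RPS13-3 and 1.02 for lnc-RPS13-2. How the authors' pipeline divided reads between these genes was not tested. A member noticed after its values were seen, lnc-RPS25-5, had 0.739 FPKM and near 0 in MDA-MB-231-P3 and near 0 and 5.64 FPKM in MDA-MB-231.

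**Figure D3:**
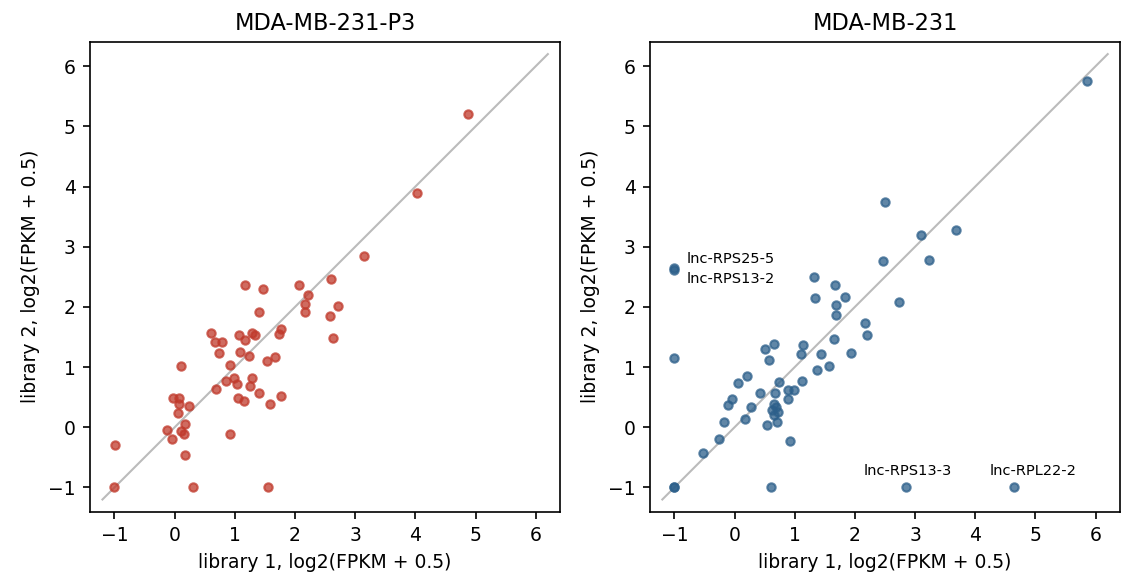
Log2(FPKM + 0.5) of the 57 tested members in library 1 (horizontal) and library 2 (vertical) of each line, 1 point per member, with the line of equal values in grey. In MDA-MB-231, the labelled lnc-RPL22-2, lnc-RPS13-2, lnc-RPS13-3 and lnc-RPS25-5 sit at the floor in 1 library only. So do lnc-MRPL9-2 and lnc-MRPL47-3, which are less high in the other library. In MDA-MB-231-P3, members at the floor in 1 library include lnc-RPS25-5. Pearson's r is 0.825 in MDA-MB-231-P3 against 0.532 in MDA-MB-231.

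The number of members at 0.01 FPKM or less differed between the lines. Of the 103 members, 7 and 9 were this low in the libraries of the subline, against 17 and 20 in those of the parent. As percentages these are 6.8% and 8.74% in the subline and 16.5% and 19.4% in the parent. Over the 12720 genes with a mean of at least 0.1 FPKM the same direction held, with 8.07% and 10.4% in the subline libraries and 14.3% and 17.8% in the parental ones. Above 0.01 FPKM in both subline libraries and at or under it in both parental ones were 5 members, namely lnc-RPS27A-6, lnc-RPL10-1, lnc-RPL7-8, lnc-MRPL19-1 and lnc-RPS21-2. The reverse was seen for 0 members. Over all 12720 genes, the first pattern was found in 3.58% and the reverse in 0.825%. The minimum of 0.1 FPKM is a mean over all 4 libraries, so these 5 members passed it only through their subline values.

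Of these 5, only lnc-RPS27A-6 was abundant enough for the main test, and it passed that filter too only through its subline values. RPL10 encodes a protein that joins the large subunit late in its assembly, and lnc-RPL10-1 was listed at 0.555 and 0.888 FPKM in MDA-MB-231-P3 and at 0 in both MDA-MB-231 libraries. For lnc-RPL7-8 the values were 0.322 and 0.412 FPKM in MDA-MB-231-P3 and 0 in both MDA-MB-231 libraries. For lnc-MRPL19-1 they were 0.351 and 0.232 FPKM in MDA-MB-231-P3 and 0.00202 FPKM and near 0 in MDA-MB-231, and for lnc-RPS21-2 0.356 and 0.117 FPKM in MDA-MB-231-P3 and 0 in both MDA-MB-231 libraries. These are levels at which a value at 0 can be a failed estimate.

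With the minimum lowered to the members' own 0.1 FPKM, all 103 members were fitted and limma again called 0, as it did of all 12720 genes (0%). The smallest adjusted p of a member was then 0.323 (limma). An unadjusted p under 0.05 was reached by 13 members, 9 higher and 4 lower, or 12.6% against 12% of all genes. Of these 13, 4 lay under the filter of the main test. Among them were lnc-RPL10-1 and lnc-RPL7-8 (cytosolic large) and lnc-MRPL19-1 (mitochondrial large), all higher in the subline. As said above, they passed the minimum only through their subline values. Both subline libraries lay above both parental ones for 32 of the 103 (31.1%) and below them for 22 (21.4%), where the background was 28.1% and 17.2%. Taking values at or under 0.01 FPKM as equal gave 31 and 20, or 30.1% and 19.4%, against 27.4% and 17%. The shares of the members were again close to those of all genes.

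Several ribosomal protein genes had more than 1 lncRNA of their name. Among the 69 neighbouring genes, 45 had 1 member, 17 had 2, 4 had 3 and 3 had 4. Members of the same name could differ widely in level. The direction of their differences could also vary, although limma called no member. Beside MRPS30, lnc-MRPS30-7 had 15.7 and 14.4 FPKM in MDA-MB-231-P3 and 12.3 and 9.20 FPKM in MDA-MB-231 (log2 difference 0.48, limma adjusted p = 0.474), while lnc-MRPS30-14 had 0.00558 and 0.316 FPKM in MDA-MB-231-P3 and 1.14 and 0.561 FPKM in MDA-MB-231 (log2 difference -1.04, limma adjusted p = 0.410). The mean levels of the 4 MRPS30 members thus ran from 0.505 to 12.9 FPKM. A row named MRPS30-DT, a divergent transcript of the same gene that the naming rule does not take, had 0.358 and 0.384 FPKM in MDA-MB-231-P3 and 0.768 and 2.33 FPKM in MDA-MB-231.

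Beside RPS7, whose product binds the p53 regulator MDM2, the 3 members had mean levels from 0.166 to 3.497 FPKM. Among them lnc-RPS7-3 had 1.86 and 1.77 FPKM in MDA-MB-231-P3 and 1.35 and 0.882 FPKM in MDA-MB-231, and lnc-RPS7-2 had 0.145 and 0.141 FPKM in MDA-MB-231-P3 and 0.194 and 0.183 FPKM in MDA-MB-231. The first lay higher and the second lower in both subline libraries. Fitted at the minimum of 0.1 FPKM, the log2 difference of lnc-RPS7-3 was 0.53 (SE 0.30, limma adjusted p = 0.561). That of lnc-RPS7-2 was -0.10 (SE 0.21, limma adjusted p = 0.847), smaller than its SE. The other genes with at least 3 members were MRPL14, MRPL19, MRPL39, MRPL47 and RPS24, whose members had means of 0.104 to 1.65 FPKM. Members lay on both sides for 4 of these 5 genes, and for MRPL47 all 3 members overlapped between the lines. Over all 12720 genes with a mean of at least 0.1 FPKM, 28.1% lay above and 17.2% below in both subline libraries. Such orderings are thus common, and differences in direction between members of 1 name were not tested.

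**Figure D4:**
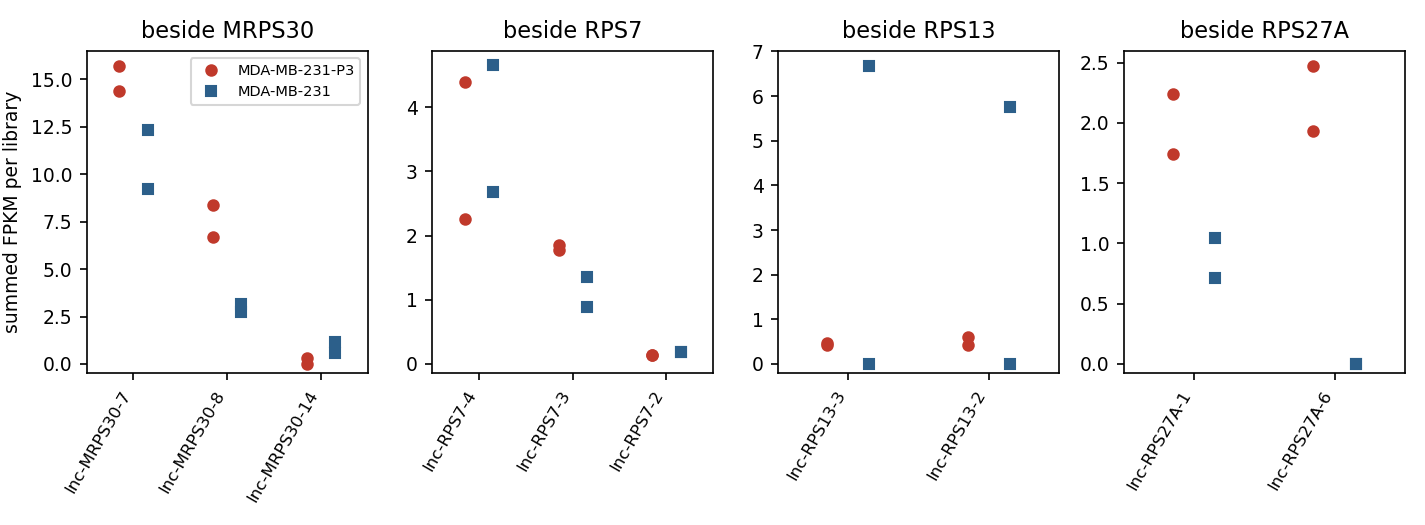
Summed FPKM per library (circles MDA-MB-231-P3, squares MDA-MB-231) of members that share a neighbouring gene: MRPS30, RPS7, RPS13 and RPS27A; each panel has its own axis, and 3 of the 4 MRPS30 members are drawn. Beside RPS13 each of the 2 lncRNAs is high in a different parental library, at 6.68 and 5.75 FPKM, and beside RPS27A both lncRNAs lie higher in MDA-MB-231-P3.

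The 103 members comprised 299 isoform rows. There were 63 members with 1 isoform and 40 with several, up to 35. Of the 40, 36 had a mean above 0.01 FPKM in each line. Among these, the isoform of highest mean level was the same in both lines for 22 and differed for 14. In 5 of the 14 the leading isoform held at least 50% of the sum in each line, namely lnc-RPL37-1, lnc-RPL18-3, lnc-RPL3-1, lnc-MRPL44-1 and lnc-RPL35-2. In lnc-RPL37-1 this rested on close values, since isoform 2 had 0.519 and 1.24 FPKM in MDA-MB-231-P3 and 0.193 and 0.237 FPKM in MDA-MB-231, and isoform 3 had 0.507 and 1.23 FPKM in MDA-MB-231-P3 and 0.188 and 0.330 FPKM in MDA-MB-231. In lnc-RPL35-2, isoform 2 was near 0 in both subline libraries and at 0.277 and 0.180 FPKM in the parental ones. The gene as a whole had 0.0193 and 0.0168 FPKM in MDA-MB-231-P3 and 0.290 and 0.183 FPKM in MDA-MB-231. In lnc-RPL3-1, isoforms 2 and 1 had 0.226 and 0.223 FPKM in MDA-MB-231 replicate 1, and both were at 0 in replicate 2. In lnc-MRPL44-1, isoform 3 had 0 and 0.103 FPKM in MDA-MB-231-P3, and isoform 1 had 0.00695 and 0.279 FPKM in MDA-MB-231. In lnc-RPL18-3, isoform 1 had 0.118 and 0 FPKM in MDA-MB-231, and isoform 2 had 0.107 and 0.148 FPKM.

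In lnc-MRPL35-1, isoform 4 carried 51.5% of the gene's level in MDA-MB-231-P3 and 92.2% in MDA-MB-231. The subline libraries disagreed here, with 1.59 and 0.216 FPKM of isoform 4 in MDA-MB-231-P3 and 4.16 and 6.25 FPKM in MDA-MB-231. In lnc-MRPL11-1 the leading isoforms differed and each rested on 1 library. Isoform 18 was listed at 2.92 and 0.00210 FPKM in MDA-MB-231-P3 and near 0 in both MDA-MB-231 libraries, and isoform 7 at 1.21 and 0.746 FPKM in MDA-MB-231-P3 and at near 0 and 8.68 FPKM in MDA-MB-231. When single isoforms were tested, 59 isoforms of 51 members passed the filter and limma called 0 of them, as of all 8432 isoforms (0%). An unadjusted p under 0.05 was reached by 7 of the 59 (11.9%), 4 higher and 3 lower, against 13.3% of all isoforms.

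LncRNAs named for other genes of protein synthesis were described in the same fit. Neighbours of translation factor genes were taken by symbol alone, EIF or EEF followed by a digit. That list therefore holds genes such as EIF4EBP3, whose product binds a translation factor and is not one itself. Of its 24 tested lncRNAs, 13 had a positive and 11 a negative difference (median 0.09). Of 22 neighbours of ribosome biogenesis genes 7 were positive and 15 negative (median -0.11), and of 6 neighbours of aminoacyl-tRNA synthetase genes 4 were positive and 2 negative (median 0.63). Limma called 0 in each of the 3 lists, and an unadjusted p under 0.05 was reached by 4 translation factor (16.7%), 2 biogenesis (9.09%) and 3 synthetase neighbours (50% of the 6), against 15.2% of all genes tested. The most abundant of these, lnc-EIF3B-2, had 88.5 and 97.8 FPKM in MDA-MB-231-P3 and 94.6 and 111 FPKM in MDA-MB-231, above every ribosomal protein neighbour, and overlapped between the lines. Next came lnc-EIF4EBP3-1, with 35.0 and 26.2 FPKM in MDA-MB-231-P3 and 14.4 and 14.6 FPKM in MDA-MB-231 (limma adjusted p = 0.268). The 2 leading biogenesis neighbours were lnc-POLR1E-2, with 18.6 and 16.9 FPKM in MDA-MB-231-P3 and 20.4 and 21.0 FPKM in MDA-MB-231 (limma adjusted p = 0.674), and lnc-RRN3-1, with 14.99 and 11.2 FPKM in MDA-MB-231-P3 and 16.2 and 19.1 FPKM in MDA-MB-231 (limma adjusted p = 0.526). Of the synthetase neighbours, lnc-RARS2-4 had 3.74 and 5.83 FPKM in MDA-MB-231-P3 and 5.62 and 4.04 FPKM in MDA-MB-231, which overlap.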

How the data were processed

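Per the labels' protocols, the authors made strand-marked libraries from the mRNA fraction, aligned reads to hg19 with HISAT2 and normalized them to FPKM. The submitters' processing notes also name StringTie. Their versions and the lncRNA annotation: not given in the sources used here. The deposited FPKM values are per isoform, and the per-sample files equalled the series table in all 104786 rows. Here isoforms were summed per gene. Limma 3.58.1 (R 4.3.3) was fitted to log2(FPKM + 0.5) of genes with a mean of at least 0.5 FPKM, with an intensity trend and Benjamini-Hochberg adjustment over all genes (two-sided, P3 minus parent). The function was tested on simulated data. FPKM holds no read counts, so depth is unknown and no counting interval is given. A value at or under 0.01 FPKM is called near 0.

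The members and lists were chosen with earlier results of these data known. Named members are the 10 most abundant, the 3 most abundant of each class, the 6 of smallest p and the 4 of largest non-overlapping difference per direction, the 3 of widest range within a line, those at the rule's limit, those sharing a neighbour with at least 2 others, and up to 5 whose leading isoform differed; others were chosen after their values were seen. Some genes that this rule takes are not reported here, but counts and medians include them. Neighbour positions came from GENCODE release 44 on GRCh37 (69 of 69 symbols found), gene starts from RefSeq on GRCh38.p14. Tables were made with Python 3.11.15 and pandas 2.3.3, and plots with matplotlib 3.10.9. Alternatives were other pseudocounts, filters, scalings, no trend, the replicate block, single isoforms, a minimum difference, and leaving out each library.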

Additional observations from a re-analysis of the deposited data

How the results depend on the processing

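The count of 0 called members was the same under every alternative run. The count over all genes, 4, was 0 with a pseudocount of 1, with no filter, with a minimum of 0.1 FPKM, without the trend or on single isoforms, 2 after quantile normalization, and 0 when any 1 library was left out. The members' median log2 difference of 0.10 was -0.0001 with quantile normalization, 0.0136 with centring, 0.282 with scaling to the sum without the 10 most abundant isoforms, and 0.0613 to 0.193 without single libraries. Members not overlapping between the lines, 17 higher and 14 lower, numbered 32 and 22 with a minimum of 0.1 FPKM, and 8 were lower with a minimum of 1 FPKM, as more and fewer members enter. Of 24 tested members that the naming rule took, 19 kept their sign in every setting. Signs changed for lnc-RPS7-4 (0.072 with scaling to that sum, -0.56 to 0.27 without single libraries), lnc-RPL13A-1 (-0.93 to 0.22), lnc-RPS13-3 (-2.93 to 0.92), lnc-RPS13-2 (-2.63 to 1.02) and lnc-MRPS16-1 (-0.0637 to 0.379), none of them called. The cause was not tested. Leaving out a library leaves 1 in its line, which is then assumed to vary like the other line.

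Replicate numbers are shared between the lines, but nothing in the labels pairs them, and same-numbered libraries' deviations from their line means correlated at 0.0777 over all genes. With the replicate block, 0 members and 0 genes were called.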
